A study of Mus musculus with 20 samples.

Results

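The protocadherins of the mouse were described across 10 conditions of the mammary epithelial line NMuMG, as the protein-coding genes of the deposited expression table whose symbol begins with Pcdh. They numbered 69 of the 54986 genes in the table. Of these, 57 belonged to the clustered protocadherins (14 Pcdha, 22 Pcdhb and 21 Pcdhg genes) and 12 were non-clustered genes that lie apart from these arrays. The membership rule used gene type and symbol only.

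Protocadherins are single-pass membrane proteins with extracellular cadherin repeats and form a large branch of the cadherin superfamily. The clustered genes are arranged in tandem, and each Pcdha or Pcdhg gene has a variable exon with a promoter of its own that is spliced to constant exons shared by its cluster, whereas Pcdhb genes have a single coding exon and no shared constant exons. In neurons, combinations of clustered isoforms on the cell surface give a cell an identity that serves self-avoidance of its branches. Non-clustered protocadherins act in cell sorting, adhesion and signalling in many tissues, epithelia included.

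All libraries derived from NMuMG, a non-transformed line of normal murine mammary gland cells, and each condition had 2 libraries. The parental condition was NMuMG without treatment, and TGFβ denotes the same cells treated with that cytokine, an inducer of the epithelial–mesenchymal transition (EMT), for several days by the study's description and at a dose that the labels do not give. E1KD cells stably carried an shRNA against hnRNP E1 (gene Pcbp1), an RNA-binding protein. M1P and L1P were E1KD cells recovered from a mammary tumor and from lung metastases of NOD/SCID mice, and were selected in culture through a puromycin resistance gene. A further set comprised NMuMG with an empty overexpression vector (Empty vector), 2 lines that overexpress the long noncoding RNA Platr18 (clone 12 and clone 16, each a single clone), and 2 derivatives of E1KD, of which E1KD SCR carried a scrambled shRNA and E1KD Platr18 KD an shRNA that targets Platr18. The labels do not say whether the 2 libraries of a condition came from separate cultures, so p-values measure only the spread between these libraries, which may be technical.

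Values are CPM, read counts scaled to library depth. The libraries were of 2 kinds: the first 5 conditions held 333 to 492 CPM of the mitochondrial ribosomal RNA mt-Rnr2 and the second 5 held 113874 to 165149 CPM, so each comparison stayed within a kind, as between kinds the kind and the cells cannot be told apart. Depth inferred from the smallest step between values was about 50800000 to 60000000 reads in the first kind and 63000000 to 147300000 in the second, so 3 reads corresponded to 0.04998 to 0.0591 CPM and 0.0204 to 0.0477 CPM. Pcbp1 was at 287 and 312 CPM in NMuMG against 16.6 and 14.2 CPM in E1KD, and at 32.3 and 32.3 CPM in Empty vector against 3.28 and 3.46 CPM in E1KD SCR. Platr18 was at 3092 and 3096 CPM in clone 12, 813 and 820 CPM in clone 16 and 3.68 and 3.06 CPM in Empty vector, and at 0.136 and 0.170 CPM in E1KD Platr18 KD against 2.92 and 3.10 CPM in E1KD SCR. The epithelial markers Cdh1 (70.1 to 237 CPM), Krt8 and Krt18 were present in all 20 libraries, while Epcam and Cldn7 were at or near 0 in each. E1KD replicate 1 stood apart in its total of listed CPM (728645, against 567409 in replicate 2).

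Most protocadherins were silent or nearly so. The filter required at least 1 CPM in at least 2 libraries, and 15 of 69 genes passed it: 5 of 12 non-clustered genes (Pcdh1, Pcdh7, Pcdh9, Pcdh10 and Pcdh17), 3 of 22 Pcdhb genes (Pcdhb16, Pcdhb17 and Pcdhb22), 7 of 21 Pcdhg genes (Pcdhga4, Pcdhga9, Pcdhgb2, Pcdhgb7, Pcdhgc3, Pcdhgc4 and Pcdhgc5) and 0 of 14 Pcdha genes. The other 54 genes stayed at or below 1.12 CPM, the value of Pcdhb19 in a TGFβ library. Only Pcdh1, Pcdh7, Pcdh10 and Pcdhgc3 reached 10 CPM in any library. Because a gene could pass through the condition in which it was high, counts over the 15 genes are given as descriptions beside the share of all 17103 genes tested. Only the E1KD libraries reached 1 CPM for Pcdh17, only the TGFβ libraries for Pcdhgc5 and only the L1P libraries for Pcdhga9. Pcdhga4 reached it only in E1KD and in L1P replicate 2. Pcdh9 and Pcdhgb2 reached it only in libraries of E1KD, M1P and L1P. The p-values of these genes in comparisons with those conditions are therefore descriptions too.

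**Figure D1:**
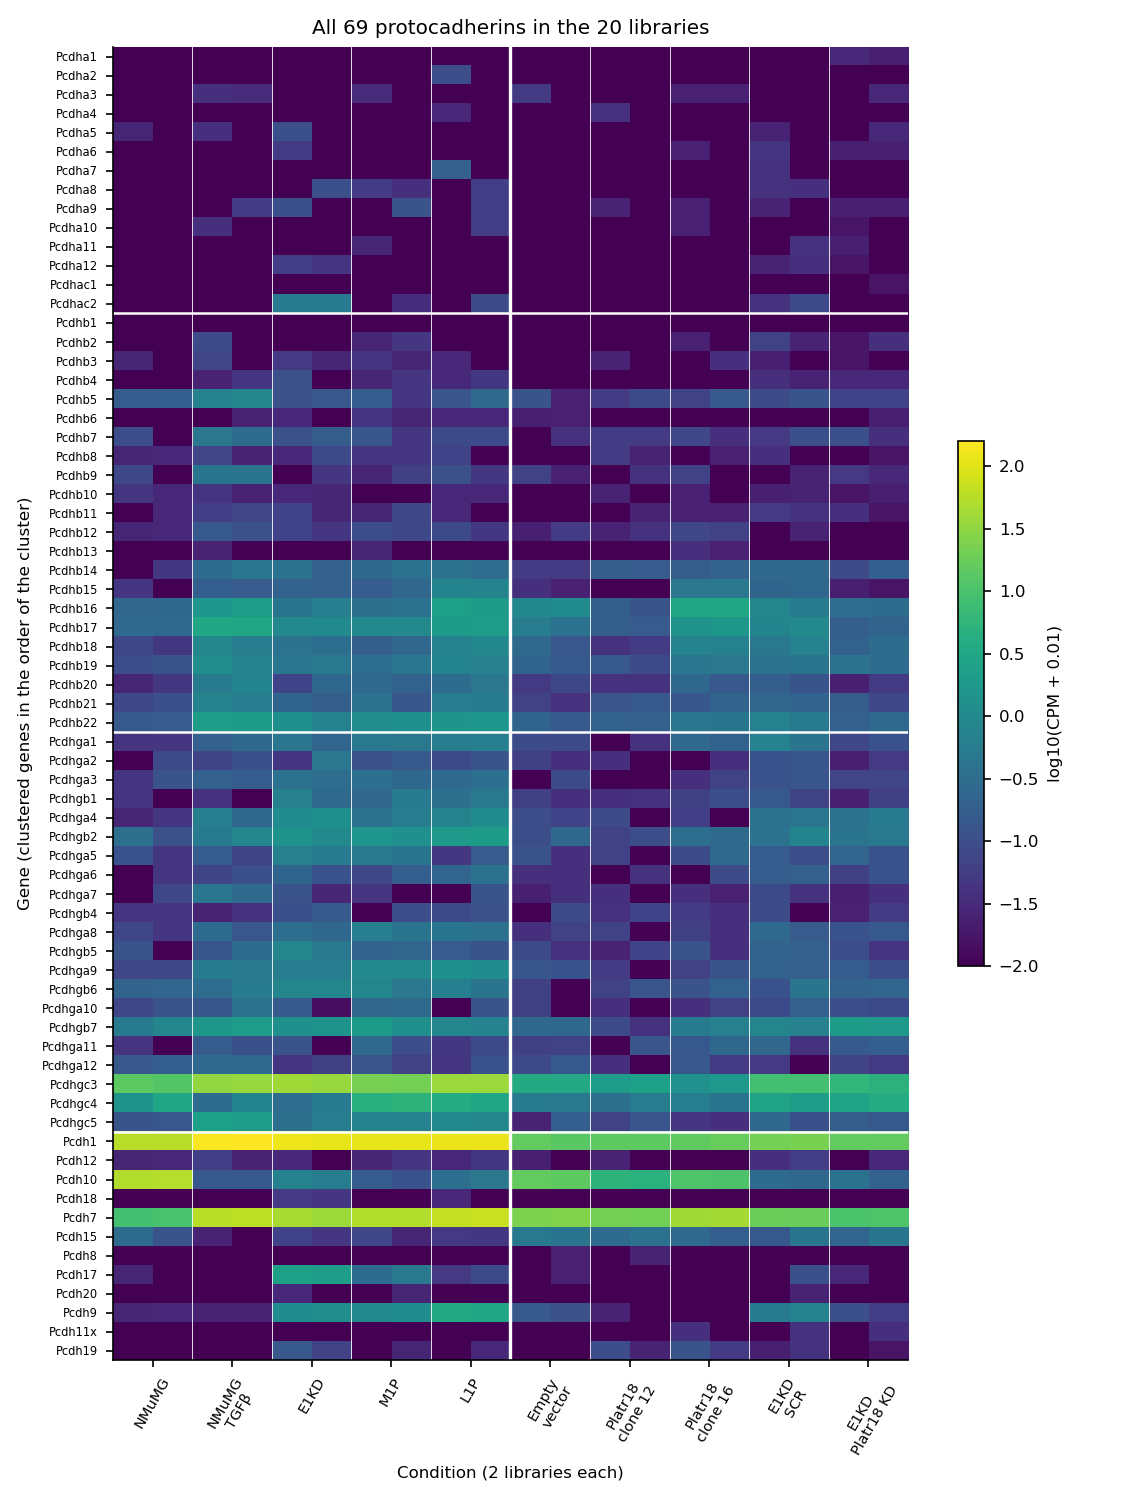
Levels of all 69 protocadherins (rows, as log10 of CPM + 0.01; the clustered genes stand in the order of their clusters) in the 20 libraries (columns, 2 for each condition). The non-clustered Pcdh1 and Pcdh7 were at or above 8.83 CPM in every library, Pcdh10 exceeded 1 CPM only in NMuMG, Empty vector and the 2 Platr18 clones, and the 14 Pcdha rows stayed at or below 0.517 CPM.

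Among the non-clustered genes, Pcdh10 (ENSMUSG00000049100.15, GRCm38 chromosome 3, 45378398 to 45435624, plus strand), whose product binds the WAVE actin regulator and which is widely studied as a gene silenced in carcinomas, fell furthest. Its level was 51.6 and 54.1 CPM in NMuMG, 0.134 and 0.133 CPM with TGFβ, 0.689 and 0.591 CPM in E1KD, 0.157 and 0.106 in M1P, and 0.334 and 0.447 in L1P. In the other kind of library it was 15.7 and 14.4 CPM in Empty vector, 5.17 and 4.75 CPM in clone 12, 11.01 and 10.7 CPM in clone 16, 0.284 and 0.238 CPM in E1KD SCR, and 0.360 and 0.198 CPM in E1KD Platr18 KD. The cells with intact hnRNP E1 and no TGFβ thus stood above all others of their kind without overlap. In reads, NMuMG held 2916 and 2869 and the TGFβ-treated cells 8 and 8.

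Pcdh7 (ENSMUSG00000029108.14, GRCm38 chromosome 5, 57717967 to 58133231, plus strand), an adhesion protein whose cytoplasmic part binds protein phosphatase 1, had another order. It was at 8.83 and 9.87 CPM in NMuMG, 58.8 and 62.3 CPM with TGFβ, 45.4 and 38.6 CPM in E1KD, 51.0 and 52.0 in M1P, and 66.4 and 69.4 in L1P. In the second kind it was at 23.7 and 25.3 CPM in Empty vector, 20.7 and 20.3 CPM in clone 12, 40.6 and 43.5 CPM in clone 16, 17.9 and 17.5 CPM in E1KD SCR, and 10.4 and 10.9 CPM in E1KD Platr18 KD. NMuMG was lowest in its kind, and within the second kind clone 16 was highest and E1KD Platr18 KD lowest, with no overlap of any of these groups with another.

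Bases upstream of Pcdh10 and Pcdh7 are shown because these 2 genes had the largest fall and the largest rise on log2(CPM + 1) among the protocadherins tested in the TGFβ comparison. By ratio of mean CPM the rise of Pcdh7 (6.48-fold) was below those of lower genes such as Pcdhgc5 (18.2-fold). The sequences are RefSeq's for GRCm38.p6, on the plus strand, 5′ to 3′, from chr3:45378148-45378397 and chr5:57717831-57717966, each ending at the base before the start of the gene as deposited, with CG dinucleotides in capitals.
Pcdh10: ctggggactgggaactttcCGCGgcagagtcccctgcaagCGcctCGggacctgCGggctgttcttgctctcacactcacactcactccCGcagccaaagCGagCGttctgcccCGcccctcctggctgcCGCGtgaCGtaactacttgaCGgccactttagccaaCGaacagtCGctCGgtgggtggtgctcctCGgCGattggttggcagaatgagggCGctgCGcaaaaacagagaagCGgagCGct
Pcdh7: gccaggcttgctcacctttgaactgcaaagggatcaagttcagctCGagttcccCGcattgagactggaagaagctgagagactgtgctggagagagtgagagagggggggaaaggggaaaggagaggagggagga
The Pcdh10 stretch held 22 CG dinucleotides in 250 bases, a number reached by 14.8% of 32851 promoter windows of that length from RefSeq (chromosomes other than the one that carries the clusters, median 6). The shorter Pcdh7 stretch of 136 bases held 2, and the full window of 250 bases before the RefSeq start of Pcdh7 held 7, a number reached by 46.3% of windows. The letters CAGGTG or CACCTG, a motif bound by Snail and Zeb factors, were in neither window and in 17.2% of all windows. These counts describe letters only, and 9 of the 69 genes had an entry in the windows searched. Across these, 250 bases held 23 CG for Pcdh18, 22 for Pcdh10, 21 for Pcdh17, 18 for Pcdh9 and 16 for Pcdh19. Pcdh8 had 11, Pcdh7 7, Pcdh15 6 and Pcdh20 3. Pcdh18 was nearly silent, and Pcdh17 and Pcdh9 were higher in E1KD than in NMuMG, so many CG were not particular to Pcdh10.

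Pcdh1, a protocadherin of epithelial junctions, was the most abundant member of the first kind of library. It was at 55.05 and 55.2 CPM in NMuMG, 148 and 165 CPM with TGFβ, 126 and 111 CPM in E1KD, 111 and 111 in M1P, and 121 and 119 in L1P. In the second kind it ranged only from 13.2 to 22.95 CPM, with E1KD SCR highest at 20.7 and 22.95 CPM. Per kilobase of exon, NMuMG had mean levels of 6.27 CPM for Pcdh1, 3.33 for Pcdh10, 2.35 for Pcdhgc3 and 0.882 for Pcdh7, whereas TGFβ-treated cells had 17.8 for Pcdh1, 6.30 for Pcdhgc3, 5.71 for Pcdh7 and 0.00840 for Pcdh10. In Empty vector, Pcdh7 led with 2.31 CPM per kilobase, followed by Pcdh1 with 1.64, Pcdh10 with 0.947 and Pcdhgc3 with 0.652.

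**Figure D2:**
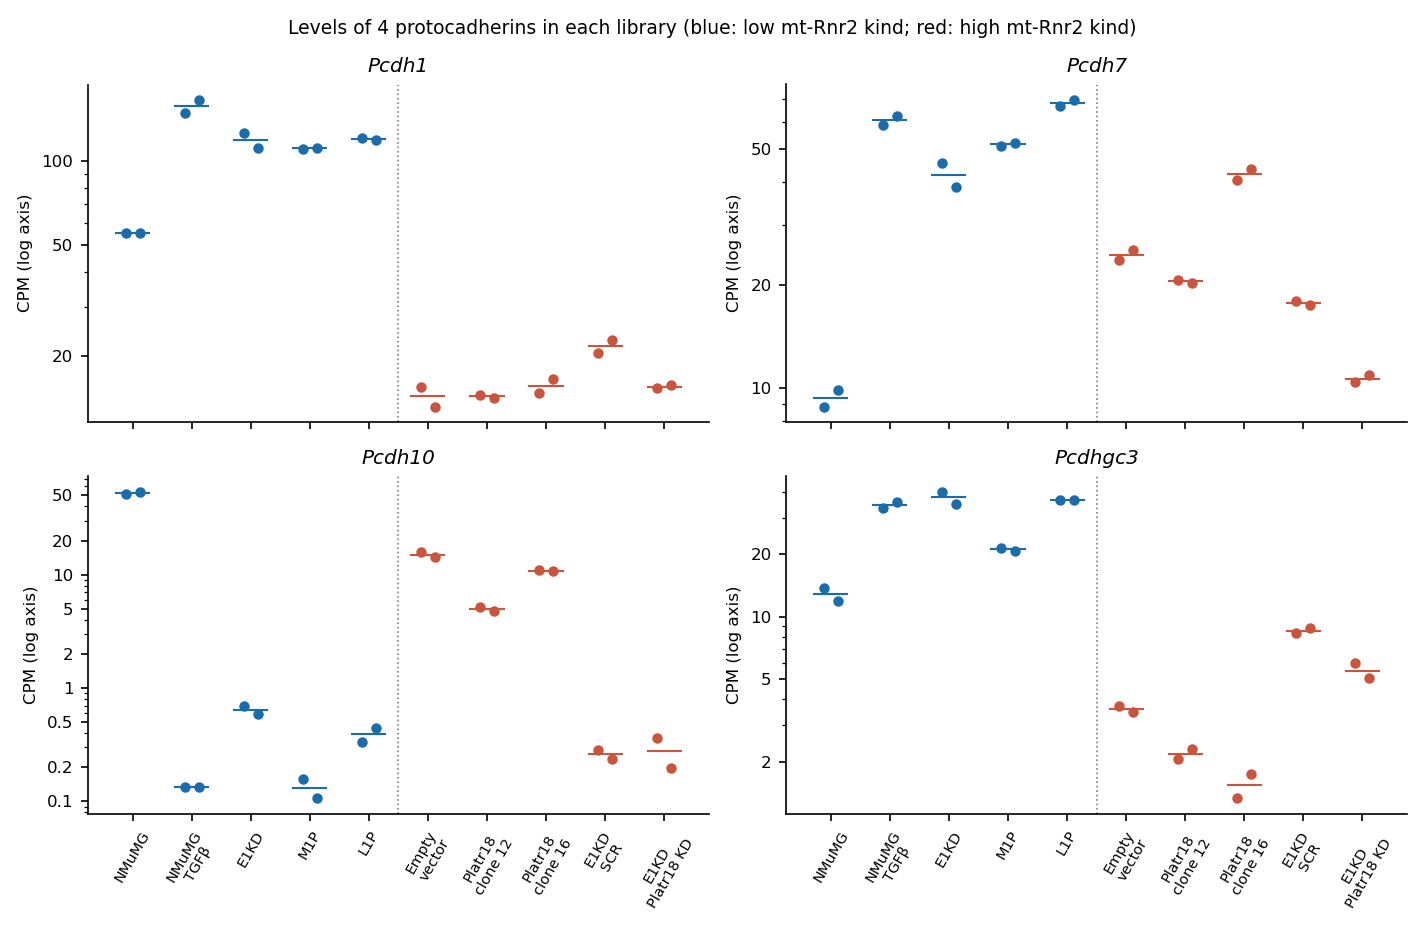
Levels of Pcdh1, Pcdh7, Pcdh10 and Pcdhgc3 in CPM on log axes (points, the 2 libraries of a condition; lines, their mean), with the first kind of library in blue and the second in red. Pcdh10 fell from 51.6 and 54.1 CPM in NMuMG to under 1 CPM in the TGFβ, E1KD, M1P and L1P libraries, while Pcdh7, Pcdh1 and Pcdhgc3 were lowest in NMuMG within the first kind.

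Pcdh9 and Pcdh17, both best known from the nervous system, were nearly absent from NMuMG. For Pcdh9 there was 1 read in each NMuMG and each TGFβ library, against 1.08 and 1.16 CPM in E1KD, 0.943 and 1.08 in M1P, and 3.63 and 3.05 in L1P. Reads pooled over E1KD numbered 118 against 2 in NMuMG, a depth-scaled ratio of 61.6 with a 95% exact conditional interval of 16.7 to 515 that covers counting error only. For Pcdh17, E1KD held 2.44 and 2.27 CPM against 1 read and 0 in NMuMG (247 reads against 1, ratio 258, interval 45.9 to 10225), and M1P had 0.279 and 0.479 CPM and L1P 0.0392 and 0.0777 CPM. In Empty vector the same gene had 0 and 1 read, and in E1KD SCR 0 and 6 reads. The remaining 7 non-clustered genes (Pcdh8, Pcdh11x, Pcdh12, Pcdh15, Pcdh18, Pcdh19 and Pcdh20) stayed at or below 0.493 CPM, the level of Pcdh15, a hair-bundle protein of the inner ear, in an Empty vector library.

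The clusters lie on chromosome 18 of GRCm38 on the plus strand, Pcdha from 36930184 to 37187662, Pcdhb from 37264938 to 37524480 and Pcdhg from 37661793 to 37841874. Values for Pcdha and Pcdhg genes are less certain than those for the others, since the constant exons are shared: a median of 44.4% of the 50-base stretches of a Pcdhg gene (range 26.9% to 65.3%) and 59.6% for Pcdha (43.7% to 63.9%) also occurred in another member, against 4.26% for Pcdhb and 0 for the non-clustered genes. Low values, those under 50 reads, were whole numbers of reads, within 0.05 read, for 11.3% of Pcdhg, 46.6% of Pcdha, 98.0% of Pcdhb and 100% of non-clustered values, so reads of Pcdha and Pcdhg were divided among genes by estimation. No value of Pcdh1 or Pcdh7 was that low. Pcdh7 held fractional reads in NMuMG (498.7 and 523.4) and near-whole reads in Empty vector (1731.99 and 1748.02), so some of its reads were also divided in the first kind. In the annotation, exons of the antisense genes BC037039, 4932441J04Rik and 1700027H10Rik overlap Pcdhgc3 by 1559 bases, Pcdh7 by 2235 and Pcdh10 by 154; no use of strand in the counting is stated, so reads of the partners cannot be told apart.

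Pcdhgc3, a C-type gene at the end of its array that is the γ-protocadherin most often found outside neurons, had the highest level of its cluster in every library. It was at 13.9 and 11.98 CPM in NMuMG, 33.5 and 35.8 CPM with TGFβ, 40.3 and 35.2 CPM in E1KD, 21.4 and 20.9 in M1P, and 36.5 and 36.8 in L1P. In the second kind it was at 3.70 and 3.46 CPM in Empty vector, 2.05 and 2.29 CPM in clone 12, 1.33 and 1.74 CPM in clone 16, 8.34 and 8.83 CPM in E1KD SCR, and 5.96 and 5.04 CPM in E1KD Platr18 KD. Its share of the summed Pcdhg CPM was 80.6% and 69.997% in NMuMG but 33.2% and 38.0% in clone 16 and 46.0% and 38.3% in E1KD Platr18 KD, the lowest of the 10 conditions.

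The other C-type genes differed from Pcdhgc3. Pcdhgc4, whose replicates spread widely, was at 1.38 and 3.06 CPM in NMuMG, 0.282 and 0.789 CPM with TGFβ, 0.313 and 0.531 CPM in E1KD, 4.67 and 5.14 in M1P, and 3.95 and 3.03 in L1P. Pcdhgc5 was at 0.115 and 0.128 CPM in NMuMG and at 2.34 and 2.06 CPM with TGFβ, and the other libraries of this kind held at most 0.968 CPM. Pcdhac2 was listed at 0.501 and 0.517 CPM in E1KD and at 0 in all NMuMG, TGFβ, Empty vector and Platr18 clone libraries, and Pcdhac1 did not reach the level of 3 reads in any library.

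Summed over the 22 genes, Pcdhb was at 1.33 and 1.23 CPM in NMuMG, 12.9 and 11.9 CPM with TGFβ, 4.78 and 4.34 CPM in E1KD, 4.5 and 4.54 in M1P, and 9.79 and 9.65 in L1P. The corresponding sums were 2.58 and 2.14 CPM in Empty vector, 1.2 and 1.1 CPM in clone 12, 7.66 and 7.58 CPM in clone 16, 4.28 and 4.21 CPM in E1KD SCR, and 1.78 and 1.83 CPM in E1KD Platr18 KD. Within each kind of library the ranges of the conditions did not overlap, except those of E1KD and M1P. The sum over the 18 Pcdhga and Pcdhgb genes listed was 1.84 and 1.95 CPM in NMuMG against 5.79 and 6.26 CPM with TGFβ and 9.08 and 7.85 CPM in E1KD, and 0.634 and 0.566 CPM in clone 12 against 2.0 and 2.4 CPM in clone 16. In bulk RNA, fewer cells with a transcript and less of it per cell cannot be told apart, which matters for genes that single cells may use by choice.

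The first comparison asked how protocadherins differ after hnRNP E1 silencing. Pcdh7, Pcdh17, Pcdhgc3, Pcdh1, Pcdhga4 and Pcdh9 were higher in E1KD than in NMuMG, and Pcdh10 and Pcdhgc4 were lower. A gene was called at a limma p under 0.001 with a log2 fold change of at least 1 on log2(CPM + 1), a scale that understates changes of low genes. By this rule 8 of 15 members were called (6 higher and 2 lower, 5 of 5 non-clustered and 3 of 10 clustered genes), beside 9.44% of all genes. The log2 fold changes were −5.04 ± 0.08 (SE) for Pcdh10 (limma adjusted p = 3.49e-15), 2.05 ± 0.08 for Pcdh7 (3.15e-11), 1.73 ± 0.06 for Pcdh17 (1.18e-11), 1.48 ± 0.10 for Pcdhgc3 (2.40e-08) and 1.09 ± 0.09 for Pcdh1 (1.39e-07).
The remaining called members were Pcdhga4 (1.07 ± 0.11), Pcdh9 (1.06 ± 0.07) and Pcdhgc4 (−1.13 ± 0.22). At a limma adjusted p under 0.05 with no fold limit, 15 of 15 members differed, beside 56.6% of all genes. The median log2 fold change was 0.77 over the members and 0.17 over all genes; a median-of-ratios scaling brought the latter to 0.02 and ended the calls of Pcdh1, Pcdh9 and Pcdhga4. A fit of the 4 compared libraries alone ended those of Pcdhgc3 and Pcdhgc4, and the call of Pcdh1 was also lost without E1KD replicate 1 (log2 fold change 0.99). The call of Pcdhgc4 was lost without NMuMG replicate 2, with a log2 fold change of −0.75.

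TGFβ treatment of NMuMG, the second comparison, was accompanied by a rise of the 3 Pcdhb genes tested beside the changes in Pcdh7, Pcdh1, Pcdhgc3 and Pcdh10. Called were 9 of 15 members (7 higher and 2 lower, 3 of 5 non-clustered and 6 of 10 clustered genes), beside 13.5% of all genes. Pcdh10 fell by 5.57 ± 0.08 on the log2 scale (limma adjusted p = 8.78e-16), and Pcdhgc4 had a log2 fold change of −1.04 ± 0.22 that lost its call without NMuMG replicate 2 (−0.66), without TGFβ replicate 1, without the filter, under median-of-ratios scaling and in a fit of the compared libraries alone. Pcdh7 rose by 2.57 ± 0.08 (2.29e-12), Pcdhb17 by 1.69 ± 0.07 (8.36e-11), Pcdhgc5 by 1.51 ± 0.09 (1.76e-09), Pcdh1 by 1.49 ± 0.09 (2.98e-09), Pcdhb22 by 1.43 ± 0.11 (2.93e-08), Pcdhgc3 by 1.36 ± 0.10 (4.13e-08) and Pcdhb16 by 1.18 ± 0.10 (1.10e-07), all as limma log2 fold changes with adjusted p-values. At an adjusted p under 0.05, 13 of 15 members differed, beside 55.4% of all genes.

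Genes below the filter entered a count of groups that did not overlap. Among genes, filtered or not, with a mean of at least 0.05 CPM over the 4 libraries compared, both TGFβ libraries exceeded both NMuMG libraries for 13 of 13 Pcdhb, 15 of 18 Pcdhg and 2 of 4 non-clustered genes, beside 32.9% of all genes with that mean. For E1KD against NMuMG the counts were 10 of 11 Pcdhb, 15 of 20 Pcdhg and 4 of 6 non-clustered genes, beside 43.2%. Pcdhg genes share reads, so their counts are not independent. The Pcdhb sum was 9.70 times higher with TGFβ and 3.57 times higher in E1KD than in NMuMG, and the Pcdhg sum 2.53 and 2.74 times. These 2 comparisons share the NMuMG libraries.

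**Figure D3:**
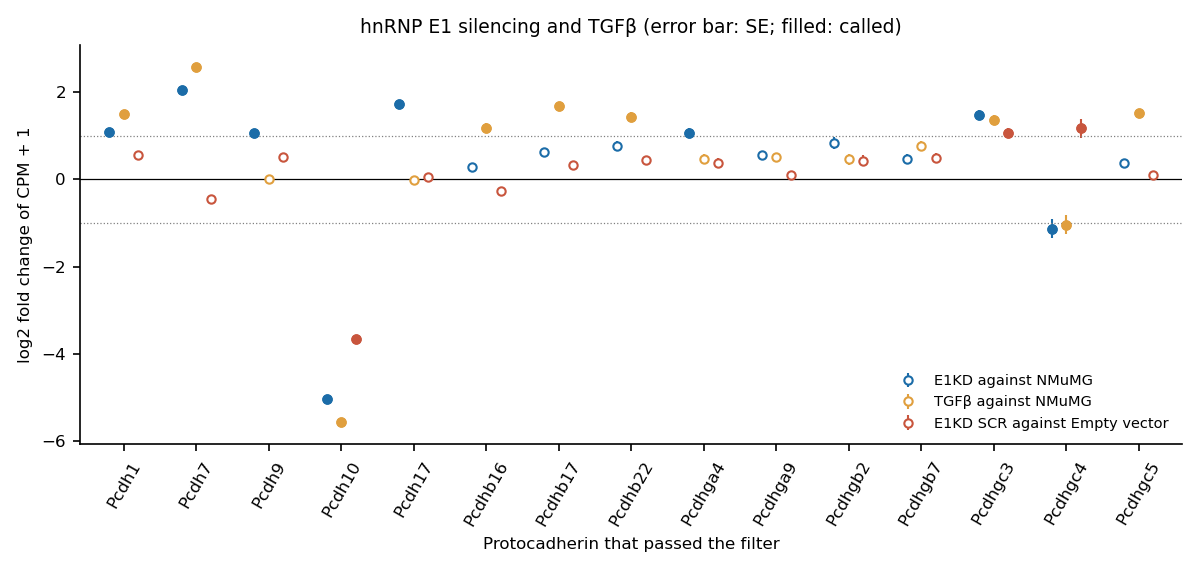
Log2 fold changes of CPM + 1 (vertical axis) of the 15 protocadherins that passed the filter, for E1KD against NMuMG (blue), TGFβ against NMuMG (yellow) and E1KD SCR against Empty vector (red), with SE bars that are mostly smaller than the points and filled points for called genes. Pcdh10 fell by 5.04, 5.57 and 3.67, while Pcdhgc4 was lower in the first 2 comparisons and higher in the third.

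Mesenchymal and other lineage markers are given beside these results. Of the 5 mesenchymal markers, Fn1, Snai1, Cdh2 and Vim were called higher in E1KD, beside 9.44% of all genes. With TGFβ, Fn1, Snai1, Cdh2 and Zeb1 were called higher, beside 13.5%. In E1KD SCR against Empty vector Fn1 was the 1 called marker of this list, beside 5.98%. The test between the kinds of library, with 3.51% of all genes called, had smaller effects of hnRNP E1 silencing in the second kind. The called log2 differences were −2.01 for Fn1, −1.74 for Snai1, −1.235 for Vim and −1.12 for Cdh2. In M1P, Fn1 (log2 fold change −1.81) and the epithelial Cdh1 (−1.29) and Ocln (−1.06) were called lower than in E1KD, beside 3.59%. Fn1 was called higher in L1P than in M1P (1.59), beside 1.21%. Endothelial markers (6 genes) summed to 0.0189 to 0.628 CPM over the 20 libraries. Leukocyte markers (6 genes) summed to 1.15 to 3.71 CPM, most of it Cd68, with Ptprc at up to 0.374 CPM. Of 5 neuron markers only Map2 exceeded 0.1 CPM, with 12.7 and 11.5 CPM in clone 16, 0.579 and 0.583 CPM in clone 12, while Snap25, Syt1, Rbfox3 and Stmn2 were at or near 0 in every library. Among glia markers, Mbp ranged from 12.5 to 106 CPM and Sox10 was at 8.53 and 8.45 CPM with TGFβ and at or near 0 elsewhere, with Gfap near 0 throughout. The part of such cells in the protocadherin values was not tested.

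The second kind of library offered hnRNP E1 silencing again, as E1KD SCR against Empty vector. Here 3 of 15 members were called, beside 5.98% of all genes: Pcdh10 was lower (log2 fold change −3.67 ± 0.08, limma adjusted p = 1.03e-13), and Pcdhgc4 (1.17 ± 0.22, adjusted p = 0.000506) and Pcdhgc3 (1.06 ± 0.10, adjusted p = 1.23e-06) were higher. The Pcdhgc4 values were 0.517 and 0.491 CPM in Empty vector and 2.58 and 2.201 CPM in E1KD SCR, without overlap, and its call was lost without Empty vector replicate 2 or E1KD SCR replicate 1. At an adjusted p under 0.05, 12 of 15 members differed, beside 42.6% of all genes, and these included Pcdh7, which was lower in E1KD SCR (log2 fold change −0.45 ± 0.08, adjusted p = 0.000405). Tested directly, the effect of hnRNP E1 silencing differed between the 2 kinds of library for Pcdh7, Pcdh17, Pcdhgc4 and Pcdh10, 4 of 15 members, beside 3.51% of all genes. For Pcdh10 the ratios of mean CPM were closer than the log2(CPM + 1) values, 0.0121 in E1KD against NMuMG and 0.0174 in E1KD SCR against Empty vector. The comparisons differ in vectors, library kind and depth as well, and these cannot be told apart.

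Between E1KD and the tumor-derived M1P line, Pcdhgc4 and Pcdh17 were called, 2 of 15 members beside 3.59% of all genes. Pcdhgc4 rose by 2.06 ± 0.22 (limma log2 fold change, adjusted p = 4.40e-06), from 0.313 and 0.531 CPM to 4.67 and 5.14 CPM, and Pcdh17 fell by 1.29 ± 0.06 (9.08e-10). At an adjusted p under 0.05, 8 of 15 members differed, 4 in each direction, beside 49.1% of all genes, among them Pcdhgc3 (−0.80 ± 0.10, adjusted p = 3.26e-05). The Pcdhb sums of E1KD and M1P overlapped.

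Between the lung-derived L1P and M1P lines, Pcdhb16 (log2 fold change 1.2 ± 0.10, limma adjusted p = 1.07e-06) and Pcdh9 (1.11 ± 0.07, limma adjusted p = 3.41e-08) were called higher in L1P, 2 of 15 members beside 1.21% of all genes. Pcdhb16 was at 2.37 and 1.90 CPM in L1P and at 0.349 and 0.372 CPM in M1P. At an adjusted p under 0.05, 9 of 15 members differed (7 higher and 2 lower), beside 18.5% of all genes. Both L1P libraries exceeded both M1P libraries for 8 of 13 Pcdhb, 7 of 20 Pcdhg and 4 of 5 non-clustered genes with a mean of at least 0.05 CPM, beside 39.6% of all such genes. The Pcdhb sum was 2.15 times higher in L1P and the Pcdhg sum 1.40 times. Pcdhgc3 made up the latter, since the Pcdhga and Pcdhgb sum was 0.961 times that of M1P and 6 Pcdhg genes were lower in both L1P libraries than in both M1P libraries.

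For Platr18 overexpression, the mean of the 2 clones was set against Empty vector. With limma, 0 of 15 members were called, beside 1.46% of all genes, 5 had an unadjusted p under 0.05 (38.3% of all genes) and 4 an adjusted p under 0.05 (28.8%). Those 4 were Pcdh10 (−0.93 ± 0.07, adjusted p = 2.23e-07), Pcdhgc3 (−0.69 ± 0.09, adjusted p = 4.76e-05), Pcdh7 (0.25 ± 0.07, adjusted p = 0.0128) and Pcdhb17 (0.22 ± 0.06, adjusted p = 0.0202), as limma log2 fold changes. Their SE and p-values measure the spread between libraries of a line and not that between the clones, which differed by 0.99 ± 0.08 for Pcdh10. Pcdh10 and Pcdhgc3 were below both Empty vector libraries in all 4 clone libraries, whereas the values of Pcdh7 and Pcdhb17 in Empty vector lay between those of the 2 clones. Pcdh9, the other gene with an unadjusted p under 0.05 (−0.16 ± 0.06, limma adjusted p = 0.0526), was also below Empty vector in all 4 clone libraries. It was near the floor, at 0.137 and 0.101 CPM in Empty vector, with 17 reads there against 1 in clone 12 and 0 in clone 16.

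The clones differed from one another. Clone 12 had 1 call against Empty vector, the fall of Pcdh10 by 1.43 ± 0.08 (limma adjusted p = 6.09e-09), beside 3.64% of all genes. Clone 16 had 1 call, the rise of Pcdhb16 by 1.08 ± 0.10 (2.18e-06), beside 1.78% of all genes. Set against clone 12 directly, clone 16 was higher in Pcdhb16 (1.88 ± 0.10, limma adjusted p = 2.72e-09), Pcdhb17 (1.12 ± 0.07, adjusted p = 3.06e-08) and Pcdh7 (1.00 ± 0.08, adjusted p = 2.16e-07), 3 of 15 members beside 4.39% of all genes, and 6 of 15 differed at an adjusted p under 0.05 beside 42.5%. The call of Pcdh7 rests at the fold limit and was lost under a median-of-ratios scaling and without replicate 2 of either clone. Each clone is 1 line with a level of Platr18 of its own, so the clone and that level cannot be told apart.

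Within the Pcdhb cluster, most of the difference between the clones in summed CPM came from the stretch from Pcdhb15 to Pcdhb20 (chromosome 18, 37473540 to 37507823), which was singled out after its values were seen. Outside Pcdhb, Pcdh10 (0.99 ± 0.08, limma adjusted p = 2.25e-07) and Pcdhgb7 (0.60 ± 0.11, limma adjusted p = 0.000665) were also higher in clone 16 without a call, Pcdhgc3 was lower (−0.33 ± 0.10, limma adjusted p = 0.0196), and the Pcdhga and Pcdhgb sum was 3.67 times higher. Pcdhb16 was at 0.918 and 1.07 CPM in Empty vector, 0.178 and 0.107 CPM in clone 12, and 3.31 and 3.11 CPM in clone 16. Pcdhb17 was at 0.589 and 0.377 CPM, 0.178 and 0.153 CPM, and 1.43 and 1.63 CPM in the same order. In both genes clone 12 was below and clone 16 above Empty vector, with no overlap.
Pcdhb15 had 0 reads in clone 12 and 66 in clone 16, at least 20.3-fold higher relative to depth when 3 reads over the 2 clone 12 libraries are taken as the floor. Pcdhb18 was at 0.0297 and 0.0460 CPM in clone 12 and at 0.748 and 0.684 CPM in clone 16. Summed over the 6 genes of the stretch, Empty vector had 2.07 and 1.81 CPM, clone 12 0.550 and 0.414 CPM, and clone 16 6.62 and 6.47 CPM, and clone 16 was 13.6 times higher than clone 12 by the means. The 14 genes before it, Pcdhb1 to Pcdhb14, summed to 0.342 and 0.368 CPM in clone 12 and 0.485 and 0.489 CPM in clone 16, and Pcdhb21 with Pcdhb22 to 0.312 and 0.322 CPM and 0.554 and 0.628 CPM. The weight of the stretch was not particular to the clones. By means it held 1.94 of the 2.36 CPM summed over Pcdhb in Empty vector. Between L1P and M1P the ratio of sums was 2.95 in the stretch, 1.10 in Pcdhb1 to Pcdhb14 and 1.46 in Pcdhb21 with Pcdhb22. Both clone 16 libraries exceeded both clone 12 libraries for 8 of 10 Pcdhb, 7 of 12 Pcdhg and 3 of 5 non-clustered genes with a mean of at least 0.05 CPM, beside 38.0% of all such genes. Other genes moved with the clones as well, though epithelial markers did not move alike. The junction gene Ocln was at 23.5 and 22.3 CPM in Empty vector, 8.50 and 7.29 CPM in clone 12 and 19.6 and 20.2 CPM in clone 16. In the same order Cdh1 was at 127 and 125, 136 and 130, and 125 and 129 CPM. Krt18 was at 1485 and 1672, 2105 and 2385, and 1653 and 1625 CPM. Against Empty vector, Fn1 was called higher in clone 12 (log2 fold change 1.11) and in clone 16 (1.05), beside 3.64% and 1.78% of all genes. Map2 was higher in clone 16 as given above. The part of these genes was not tested.

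**Figure D4:**
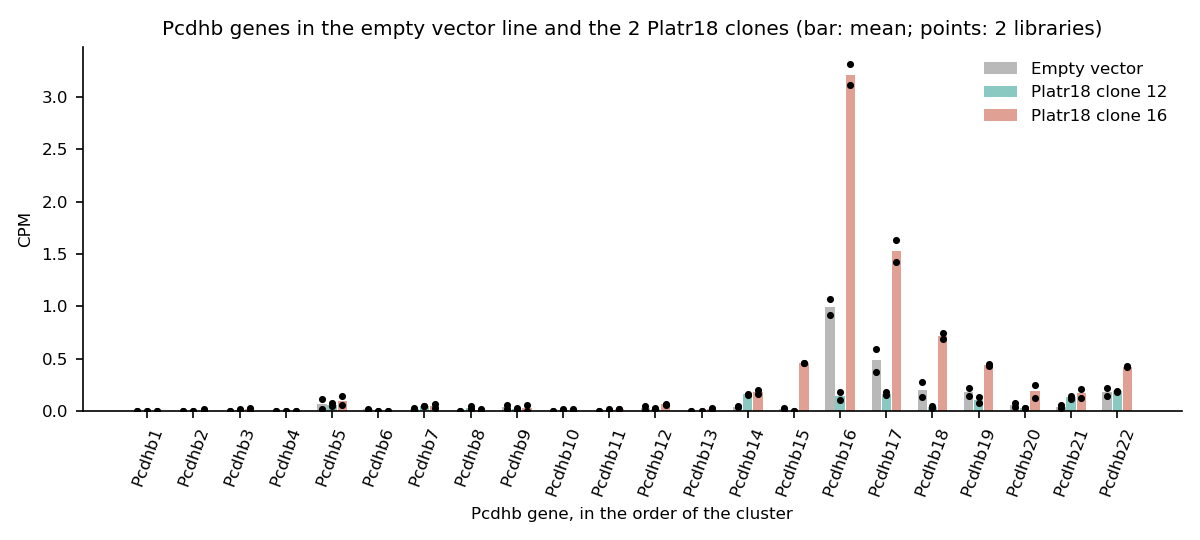
CPM of the 22 Pcdhb genes (horizontal axis, in the order of the cluster) in Empty vector (grey), Platr18 clone 12 (green) and Platr18 clone 16 (red), with bars for the mean and points for the 2 libraries. Clone 16 rose above the others from Pcdhb15 to Pcdhb20, with Pcdhb16 at 3.31 and 3.11 CPM, and Pcdhb1 to Pcdhb13 stayed at or below 0.140 CPM in all 3 lines.

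Platr18 silencing in E1KD cells was the last comparison, E1KD Platr18 KD against E1KD SCR. By limma 0 of 15 members were called, beside 1.48% of all genes, but 8 had an adjusted p under 0.05 (19.5% of all genes) and 8 an unadjusted p under 0.05 (30.7%). Of these, 7 were lower after silencing: Pcdh7 (−0.68 ± 0.08), Pcdhb17 (−0.64 ± 0.07), Pcdh9 (−0.58 ± 0.07), Pcdhgc3 (−0.56 ± 0.10), Pcdh1 (−0.46 ± 0.09), Pcdhb22 (−0.39 ± 0.11) and Pcdhb16 (−0.35 ± 0.10), with limma adjusted p-values from 1.97e-05 to 0.0235. Pcdhgb7 alone was higher (0.73 ± 0.11, limma adjusted p = 0.000384), at 1.93 and 1.85 CPM against 0.813 and 0.677 CPM. Pcdhb17 was at 0.176 and 0.204 CPM after silencing and at 0.771 and 0.937 CPM in E1KD SCR, and Pcdh9 at 0.0950 and 0.0477 CPM against 0.528 and 0.683 CPM, neither with overlap. Both silenced libraries were below both E1KD SCR libraries for 9 of 11 Pcdhb, 9 of 18 Pcdhg and 3 of 5 non-clustered genes with a mean of at least 0.05 CPM, beside 37.3% of all such genes, and the Pcdhb sum was 0.425 times that of E1KD SCR. Markers moved beside these genes, but those of a list did not move alike. After silencing Fn1 was called lower (−1.59 on the log2 scale), and Vim was at 394 and 388 CPM against 619 and 684 CPM. Zeb1 and Snai1 were lower as well, whereas Cdh2 was higher, at 101 and 95.5 CPM against 87.4 and 85.0 CPM. Of the epithelial markers, Ocln was at 32.6 and 32.2 CPM against 17.5 and 17.2 CPM, and Cdh1 at 126 and 127 CPM against 101 and 104 CPM. Krt8 (730 and 745 against 861 and 967 CPM) and Krt18 (1074 and 1077 against 1235 and 1349 CPM) were lower. The part of these markers was not tested. The silenced libraries were also the deepest, with about 147300000 and 146800000 reads, against 73900000 and 63000000 in E1KD SCR.

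**Figure D5:**
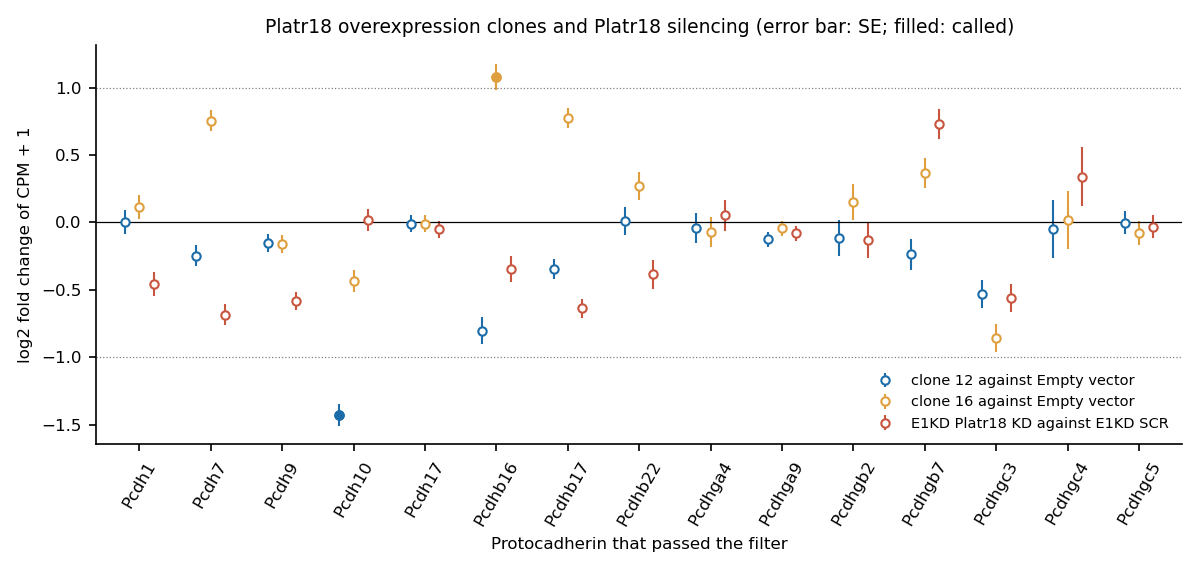
Log2 fold changes of CPM + 1 (vertical axis) of the 15 protocadherins that passed the filter, with SE bars and filled points for called genes, in clone 12 (blue) and clone 16 (yellow) against Empty vector, and after Platr18 silencing in E1KD cells (red). Pcdhb16 and Pcdhb17 lay below 0 in clone 12 and above 0 in clone 16, and Pcdhgc3 was negative in all 3 comparisons.

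Genes that act with protocadherins were followed in 3 lists. Of 15 regulators of clustered protocadherin transcription and chromatin, among them Ctcf and the cohesin genes, 2 were called in the TGFβ comparison, beside 13.5% of all genes. The cohesin subunit Rad21 fell by 1.16 ± 0.10 (limma adjusted p = 2.05e-07) and the maintenance methyltransferase Dnmt1 by 1.11 ± 0.22 (0.000480). At an adjusted p under 0.05 the counts reached 8 lower and 1 higher in M1P against E1KD, beside 49.1% of all genes in either direction. Summed over the 15 genes, E1KD held 821 and 545 CPM and M1P 562 and 561 CPM, so the M1P sums lay between those of the E1KD replicates. The median log2 fold change over all genes was −0.17 there, and −0.01 with median-of-ratios scaling. Rad21 was at 125 and 123 CPM in NMuMG and 52.7 and 57.6 CPM with TGFβ. Of 14 partners of protocadherin cytoplasmic domains and subunits of the WAVE complex, 13 were tested. The kinase gene Fyn, at 0 in both NMuMG and both Empty vector libraries, was called higher in E1KD at 10.8 and 8.37 CPM and in E1KD SCR at 3.48 and 4.05 CPM. Cyfip2, a WAVE subunit, was called higher in E1KD (1.75 and 1.07 CPM against 0) and lower in M1P (0.0349 and 0 CPM), and no other member of this list was called in any of the 8 comparisons. Cyfip2 passed the filter only through its E1KD libraries, and Fyn only through lines with hnRNP E1 silenced. Their calls in comparisons with those lines are therefore descriptions. The calls were 2 of 13 in E1KD, 1 in M1P and 1 in E1KD SCR, beside 9.44%, 3.59% and 5.98% of all genes.

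Of 14 other large cadherins, 5 were tested. Called were 1 higher and 1 lower in E1KD (9.44% of all genes), 1 lower in E1KD SCR (5.98%) and 1 lower in M1P (3.59%). The mean of the clones had 1 higher against Empty vector (1.46%), and clone 12 alone 1 higher and 2 lower (3.64%). Clone 16 had 1 higher against clone 12 (4.39%) and 1 higher against Empty vector (1.78%). Celsr2, an atypical cadherin of planar cell polarity, was lower in E1KD (0.571 and 0.203 CPM against 22.1 and 23.1 CPM in NMuMG) and in E1KD SCR (0.0947 and 0.0953 CPM against 4.32 and 3.88 CPM in Empty vector), and with TGFβ it was at 33.2 and 38.3 CPM without a call. Fat2, a giant cadherin, was called higher in E1KD (13.0 and 9.31 CPM against 1.42 and 1.21 CPM) and in the 2 clones against Empty vector (3.65, 4.16, 4.93 and 5.70 CPM against 1.096 and 1.014 CPM). Celsr1 was called lower in M1P than in E1KD (44.7 and 44.2 CPM against 115 and 95.0 CPM) and higher in clone 16 than in clone 12 (26.7 and 30.2 CPM against 11.4 and 13.1 CPM). Against Empty vector, clone 12 also had lower Celsr1 (35.3 and 28.4 CPM in Empty vector) and lower Cdhr2, a cadherin of the microvillar border, at 0 and 0.0307 CPM against 1.11 and 1.06 CPM. Cdhr2 was lower in clone 16 as well, at 0.291 and 0.223 CPM, without a call.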

How the data were processed

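RNA of NMuMG cultures and their derivatives was extracted with Trizol and sequenced as single-pass reads by the authors, who aligned them with Bowtie2 (version 2.2.5) to mouse GRCm38.p6 and quantified genes by expectation/maximization in Partek. The table the authors deposited holds CPM values with 0.0001 added, which was subtracted here. The members and gene lists were chosen with earlier results of these data known. The 17103 of 54986 genes that reached 1 CPM in 2 or more libraries were fitted with limma (version 3.58.1; R 4.3.3), on log2(CPM + 1), with 10 condition means over 20 libraries and an intensity trend in the variance. A call needed an unadjusted p under 0.001 and a log2 fold change of at least 1, and Benjamini-Hochberg adjusted p-values over all genes tested are given beside it. Values were not converted to counts, since only 90.2% to 91.4% of low values in the first kind of library were whole read steps. Every called member was named in the comparisons of the clones, and in the others up to 8 called members by size, each non-clustered member that passed the filter, the C-type genes and up to 3 called genes of each other list. Alternatives were a pseudocount of 0.1, no filter, median-of-ratios scaling, a fit of the compared groups only, a replicate block, an adjusted p without fold limit and leaving out each library. Annotation overlaps and shared 50-base stretches came from GENCODE vM21, which holds all 69 members. The fit was tested on simulated data. Floors of 3 reads and read intervals cover counting error only. Depth was inferred from the value steps and limits what can be seen below about 0.0591 CPM. Descriptive work used Python 3.11.15, pandas 2.3.3, scipy 1.17.1 and matplotlib 3.10.9.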

Additional observations from a re-analysis of the deposited data

Results flagged for a closer look

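The effect of the 2 Platr18 clones against Empty vector differed between the clones, by limma's test of clone 16 minus clone 12, for Pcdhb16 (1.88 on the log2 scale), Pcdhb17 (1.12) and Pcdh7 (1.00), with both clone 16 libraries above both clone 12 libraries for each gene.

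The effect of hnRNP E1 silencing differed between the 2 kinds of library, by limma's interaction test of E1KD SCR against Empty vector minus E1KD against NMuMG, for 4 members. The difference was −2.50 ± 0.11 for Pcdh7 (limma adjusted p = 2.92e-09), −1.68 ± 0.09 for Pcdh17 (9.04e-09), 1.37 ± 0.11 for Pcdh10 (7.87e-07) and 2.30 ± 0.30 for Pcdhgc4 (8.04e-05). Pcdh17 had passed the filter only through its E1KD libraries, so its p-value is a description. For Pcdh10 both effects were negative, with ratios of mean CPM of 0.0121 and 0.0174 that differ less than the values on log2(CPM + 1), and for Pcdh7 and Pcdhgc4 they had opposite signs.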

How the results depend on the processing

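None of the 27 called member effects of the 8 comparisons changed direction: of their 135 values under the planned settings 126 kept their call and 9 lost it, and of 108 values without 1 library 100 kept it and 8 lost it. With a pseudocount of 0.1 the number of members called was 2 for the clones against Empty vector (Pcdh9 and Pcdh10), 5 for clone 16 against clone 12, 5 for L1P against M1P, 4 for E1KD Platr18 KD against E1KD SCR, 7 for E1KD SCR against Empty vector, 12 for E1KD, 12 for TGFβ, 3 for M1P, and 5 for either clone alone against Empty vector. With an adjusted p under 0.05 and no fold limit it was 4 for the clones against Empty vector, 6 for clone 16 against clone 12, 15 for E1KD, 8 for M1P against E1KD, 9 for L1P against M1P, 8 for E1KD Platr18 KD and 12 for E1KD SCR. Median-of-ratios scaling gave 5 in E1KD against NMuMG. Clone 12 alone gave 1 call and clone 16 alone 1 with the pseudocount of 1. Without 1 library at a time the counts ranged from 0 to 0 for the clones against Empty vector and for E1KD Platr18 KD, from 2 to 4 for clone 16 against clone 12, from 7 to 8 for E1KD, from 8 to 9 for TGFβ, from 2 to 2 for M1P and for L1P, and from 2 to 3 for E1KD SCR. Deviations of same-numbered libraries had correlations of −0.13 to 0.29, so the numbers were not taken to pair the samples; a replicate block changed no count of calls (0 for the clones against Empty vector, 3 for clone 16 against clone 12, 8 for E1KD, 9 for TGFβ, 2 for M1P, 2 for L1P, 0 for E1KD Platr18 KD and 3 for E1KD SCR). A block that swapped the replicate numbers of clone 16, chosen after seeing the data, gave 1 call for clone 16 against Empty vector. The causes of these changes were not tested. Each group had 2 libraries, and the 54 members that did not pass the filter were not tested by the main fit. These were all 14 Pcdha genes, 19 Pcdhb genes, 14 Pcdhg genes and 7 non-clustered genes.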

Other observations

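Pcdhgb8, listed as a polymorphic pseudogene and therefore outside the protein-coding members, was present in every library at 0.151 to 1.52 CPM. It was at 0.772 and 0.595 CPM in NMuMG, 1.05 and 1.52 CPM with TGFβ, 0.725 and 0.976 CPM in Empty vector, 0.264 and 0.151 CPM in clone 12 and 0.245 and 0.496 CPM in clone 16, and it shares the constant exons of its cluster.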
